A study of Mus musculus with 10 samples.

Results

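The transcription factors STAT5A and STAT5B are close relatives. In the mammary epithelium, prolactin bound to its receptor activates the kinase JAK2, which phosphorylates both proteins, and the dimers then enter the nucleus, bind DNA and switch on milk protein and other lactation genes. Chromatin immunoprecipitation followed by sequencing (ChIP-seq) recovers the DNA that such a factor is bound to, and a peak caller reports the places where fragments pile up. The regions described here are the low end of such a peak list. They are STAT5A peaks of wild type mammary tissue, chosen by a score below 17.7 and by the absence of any overlap, even of 1 bp, with a STAT5B peak of wild type or of Stat5a-null tissue. They numbered 6452 of 26237 STAT5A peaks, or 24.6%. Among STAT5A peaks without STAT5B in either genotype they made up 33.6%, and the other 12761 such peaks, with scores of 17.7 or more, are called the higher-scoring ones below. The remaining 7024 STAT5A peaks, 26.8% of the list, overlapped STAT5B in at least one genotype.

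All tissue was collected on the day of parturition from mice of a mixed 129SV::FVB/N::C57BL/6 background. Wild type mice (AABB) carried Stat5a and Stat5b, and Stat5a-null mice (BB) carried Stat5b alone. Peak lists of 3 of the 10 samples were used, 1 for STAT5A (wild type, 26237 peaks) and 2 for STAT5B (wild type, 6976 peaks, and Stat5a-null, 2578 peaks), and the other 7 samples were not analysed here. Antibodies specific to STAT5A and to STAT5B were used, on powdered frozen tissue. With a single library per list there is no replicate check and no p-value, and the labels do not say how many animals a library holds. Every interval below is an exact Clopper-Pearson 95% interval, which treats peaks as independent and covers counting error only. The STAT5A antibody in Stat5a-null tissue, which would show what that antibody recovers without its target, was among the samples not analysed here. Whole mammary tissue holds epithelium, fat and other cells, and a weak site in every cell cannot be told apart from a strong site in a few.

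The score chose the regions, so it is given as a description. It is the authors' value for each peak, and its scale is not stated. Every one of the 1027 distinct scores in the STAT5A list was a whole multiple of 0.171758 to within 0.0499, so a score can be read as a number of sequenced tags if that step is the worth of 1 tag. On that reading the weakest regions held 64 to 102 tags, with a median of 86 (scores of 11 to 17.5, median 14.8). The median was 155 tags for the higher-scoring peaks without STAT5B and 418 tags for the peaks with STAT5B. All depth statements rest on this reading, since total reads are unknown.

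The list did not stop at a fixed score but thinned out over a short range. The lowest peak, chr14:8427754-8428029 on mm9, had a score of 11 (64 tags). The next, chr2:157855800-157856075, had 11.7 (68 tags), and 5 peaks stood at 11.9 (69 tags), the first 3 of which lay on chromosome 8 at chr8:41384513-41384788, chr8:66841282-66841557 and chr8:119726976-119727251. From there the number of regions rose to 137 at 73 tags and to its highest, 279, at 76 tags, and each score above that held between 162 and 263. Only 663 of the 6452 regions scored below 13.

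**Figure D1:**
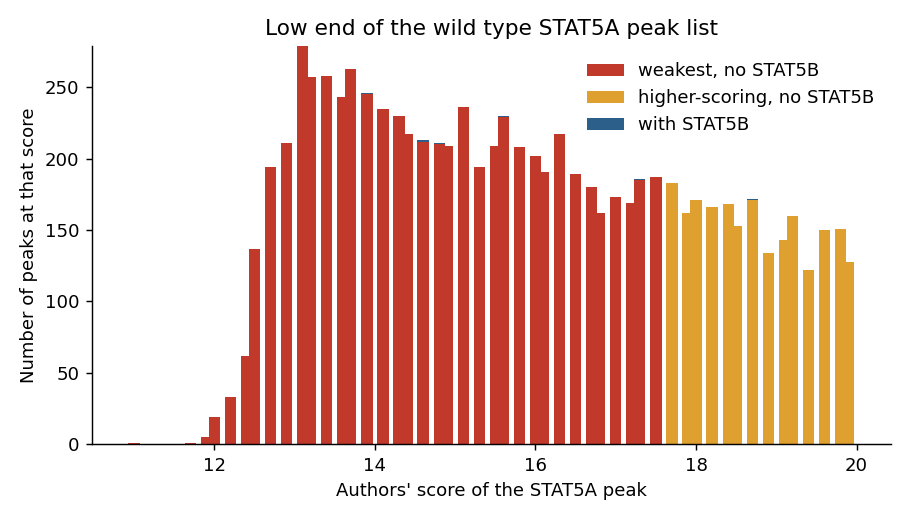
Number of wild type STAT5A peaks (vertical axis) at each score up to 20 (horizontal axis, the authors' value), stacked by class. Red bars are the weakest peaks without STAT5B, orange bars the higher-scoring ones and blue bars peaks with STAT5B, of which only 5 lie among the red bars; the count is highest at a score of 13.1 and falls off steeply below it.

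The limit of 17.7 cut through a smooth part of the list. Just inside it, 187 regions had a score of 17.5, the first of them at chr1:40381221-40381496, chr1:43420109-43420384, chr1:78486686-78486961, chr1:90976018-90976293 and chr1:94847219-94847494. Just outside, 183 peaks without STAT5B had 17.7, the first at chr1:13455809-13456084, chr1:21074790-21075065, chr1:36128856-36129131, chr1:58480721-58480996 and chr1:67026653-67026928. The 2 sets of scores differ by 1 tag, so the limit separates parts of 1 continuous distribution.

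Almost no STAT5A peak of so low a score overlapped STAT5B, and few peaks somewhat above the limit did. In the seventh decile of the list (scores 19.1 to 22.5) 7 of 2623 overlapped it, and in the fifth (27.1 to 33.5) 99 of 2624. In the first decile (83.6 to 261.6) 2612 of 2624 did. Both STAT5B lists are shorter than the STAT5A list, and a missing STAT5B peak does not show that STAT5B was absent from a site. Of the 6457 STAT5A peaks below the limit, only 5 were left out because of STAT5B, against the 26.8% of all STAT5A peaks that overlapped a STAT5B peak, a contrast that the rule itself uses. None of the 5 overlapped STAT5B in wild type tissue, where the lowest-scoring STAT5A peak with STAT5B had a score of 18.7. All 5 overlapped a STAT5B peak of Stat5a-null tissue. The first was chr7:116419467-116419742 (STAT5A score 17.3), with a Stat5a-null STAT5B peak of score 17.7 whose centre lay 1 bp away and no wild type STAT5B peak within 629 kb. The next, chr11:15884575-15884850 (14.8), also had a Stat5a-null peak of score 17.7, at 8 bp, with wild type STAT5B 488 kb away. The others were chr17:9855398-9855673 (14.6, Stat5a-null score 12), chr16:31326378-31326653 (13.9, Stat5a-null score 13) and chrX:74297459-74297734 (15.6, Stat5a-null score 9.9). In the Stat5a-null list the first 2 ranked 1136 and 1143 of 2578, so they were mid-list peaks there. In the wild type STAT5A list their scores were below the lower quartile of 17.7. With 1 library per group, these 5 are single observations.

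The position of a region was not used directly by the rule, apart from the overlap, and it was compared with that of the higher-scoring peaks without STAT5B. Position near strong STAT5A peaks went with the score, however, and the rule used the score. Weakest regions were scarce within 5 kb of the strongest STAT5A peaks, nearly all of which carry STAT5B. That gap, described below, enters the STAT5B distances that follow, so they are not independent of the rule. The weakest regions lay farther from STAT5B. The nearest STAT5B peak of either genotype was a median of 77.9 kb away, centre to centre (quartiles 23.8 kb and 217 kb), against 53.6 kb for the higher-scoring peaks (14.3 kb and 173 kb). The median was larger for the weakest regions on 20 of 20 chromosomes. A STAT5B peak lay within 10 kb of 643 of them, or 9.97% (9.25% to 10.7%), against 19.5% (18.8% to 20.2%) of the higher-scoring peaks and 16.3% of all STAT5A peaks without STAT5B. Taken alone, the wild type STAT5B list lay within 10 kb of 9.70% of the weakest regions and the shorter Stat5a-null list within 10 kb of 3.60%. At the other end, 97.5% of the weakest regions and 97.9% of the higher-scoring peaks had STAT5B within 1000 kb.

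**Figure D2:**
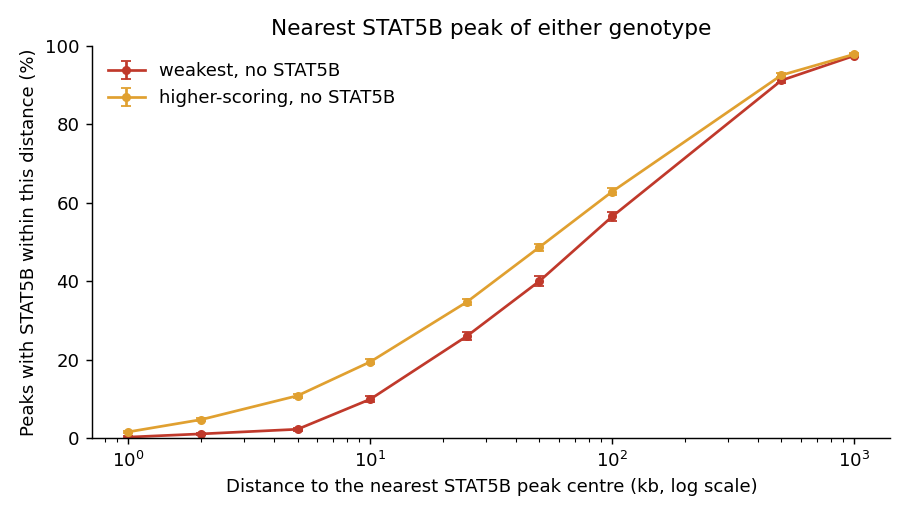
Share of peaks (vertical axis, percent) with a STAT5B peak centre of either genotype within the distance on the horizontal axis (kb, log scale), for the weakest (red) and the higher-scoring (orange) STAT5A peaks without STAT5B; bars are exact 95% intervals. At 5 kb they stand at 2.29% and 10.8%, and at 1000 kb at 97.5% and 97.9%.

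Most of the difference at 10 kb arose within 5 kb. A STAT5B peak was within 5 kb of 148 weakest regions, 2.29% (1.94% to 2.69%), and of 10.8% (10.3% to 11.4%) of the higher-scoring peaks, with 7.97% over all STAT5A peaks without STAT5B. The share was lower for the weakest regions on 20 of 20 chromosomes. The nearest STAT5B peak was 5 to 10 kb away for 7.67% (7.03% to 8.35%) and 8.65% (8.17% to 9.15%) of all peaks in the 2 classes, and the weakest regions had the lower share on 13 of 20 chromosomes. Counted only over peaks with no STAT5B within 5 kb, these shares were 7.85% (7.20% to 8.54%) and 9.70% (9.17% to 10.3%), a smaller gap than within 5 kb but with intervals that did not meet. From 10 to 25 kb the numbers, again over all peaks of each class, were 1034 of 6452 (15.1% to 16.9%) and 1940 of 12761 (14.6% to 15.8%), and the intervals overlapped. Counted over peaks with no STAT5B within 5 kb, the shares with STAT5B by 25 kb were 24.3% (23.2% to 25.3%) and 26.8% (25.9% to 27.6%). Those intervals did not meet. Among peaks with no STAT5B within 5 kb, 55.5% (54.3% to 56.8%) of the weakest and 58.4% (57.5% to 59.3%) of the higher-scoring had STAT5B within 100 kb, again with intervals that did not meet, and the median distances were 81.0 kb and 70.0 kb.

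The regions that did lie close to wild type STAT5B mostly lay next to weak STAT5B peaks. The closest was chrX:99327104-99327379 (score 14.3), 591 bp from a wild type STAT5B peak of score 12.9. The next were chr3:21921969-21922244 (14.6) and chr11:44359503-44359778 (16.3), both 705 bp from STAT5B peaks of score 11.2 and 11.5, then chr14:51713857-51714132 (15.8) at 710 bp from one of 11.7 and chr3:62985855-62986130 (15.8) at 777 bp from one of 10.7. The wild type STAT5B list runs from 9.3 to 191.8 with a median of 17.7, so all 5 neighbours stood below its median. The nearest STAT5A peak of each of these 5 regions carried STAT5B and had a STAT5A score between 29.9 and 52.4. Where the nearest STAT5B peak was a wild type one 1 to 2 kb away, its median score was 13.1 and its highest 22.2 (46 regions). At 2 to 5 kb the median was 13.1 and the highest 21.3 (66 regions). At 5 to 10 kb the median was 17 and the highest 60.4 (396 regions). These scores were not compared with those near the higher-scoring peaks, and the gap within 5 kb of strong STAT5A peaks enters them.

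Around STAT5A peaks that carry STAT5B, the density of the weakest regions changed abruptly at 5 kb. Counted in steps of 0.5 kb, it was 1.28 per Mb of flanking sequence from 4 to 4.5 kb, 2.28 from 4.5 to 5 kb and 7.26 from 5 to 5.5 kb. It then varied between 6.41 and 10.3 per Mb up to 15 kb. The average over the placed chromosomes was 2.43 per Mb, and the weakest regions were denser than that in every step from 5 to 15 kb. Inside 5 kb they lay on both sides of it, at 3.13 from 0.5 to 1 kb, 4.41 from 1 to 1.5 kb and 2.71 from 2.5 to 3 kb, and below it in the other steps, those from 3 to 5 kb included. Farther out their density declined slowly, from 8.12 per Mb at 5 to 10 kb to 7.40 at 10 to 25 kb, 5.98 at 25 to 50 kb and 5.13 at 50 to 100 kb. The higher-scoring peaks also stepped up at this distance, from 17.4 per Mb at 4.5 to 5 kb to 25.2 at 5 to 5.5 kb, a larger rise in density but a smaller one in proportion. Peaks with STAT5B stepped up there too, from 15.4 to 24.2 per Mb. The higher-scoring peaks were likewise denser than their own average of 4.80 per Mb from 5 to 15 kb, at 14.4 to 25.2.

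**Figure D3:**
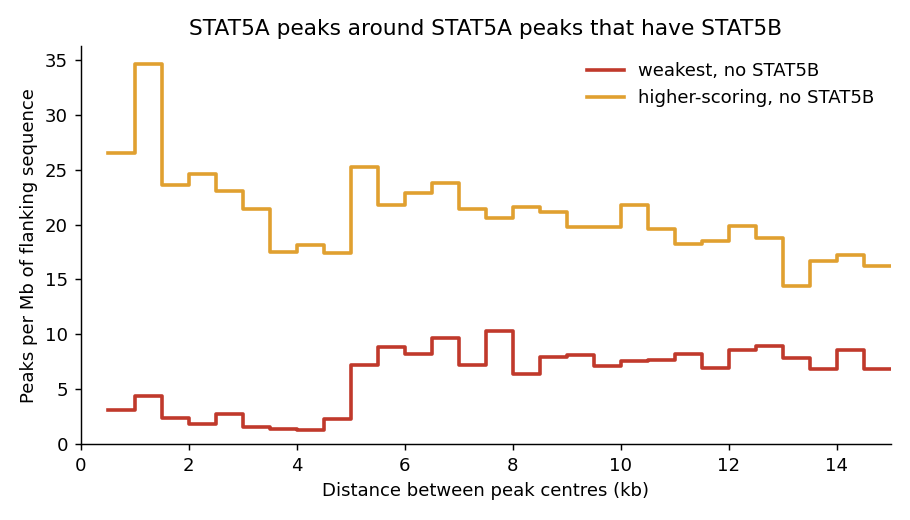
Density of STAT5A peaks without STAT5B (vertical axis, peaks per Mb of flanking sequence, both sides) against their distance from the centre of a STAT5A peak with STAT5B (horizontal axis, kb, steps of 0.5 kb). The weakest peaks (red) go from 2.28 to 7.26 per Mb at 5 kb, and the higher-scoring ones (orange) from 17.4 to 25.2.

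The gap followed the score of the neighbouring STAT5A peak. Around the 2624 peaks of the highest-scoring decile (scores 83.6 to 261.6) there was 1 pair of such a peak and a weakest region within 5 kb and 226 pairs from 5 to 10 kb. A region near several peaks counts once for each, and a pair of peaks that belong to the same set counts from both ends. The region of the single pair, chr16:11645827-11646102 (score 16.3), lay 4986 bp from a STAT5A peak of score 123.3, and the next closest to any peak of that decile lay at 5083, 5111, 5138, 5140 and 5166 bp. Around the second decile (57 to 83.6) the numbers were 45 and 210, around the third 124 and 209, around the fourth 200 and 233, and around the fifth 248 and 197. From the fifth decile down, 50.7% to 55.7% of the pairs within 10 kb were within 5 kb. From 5 to 10 kb the density was alike around all deciles, between 7.28 and 8.88 per Mb. The 5-kb distance and this grouping by decile were chosen after the values were seen.

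**Figure D4:**
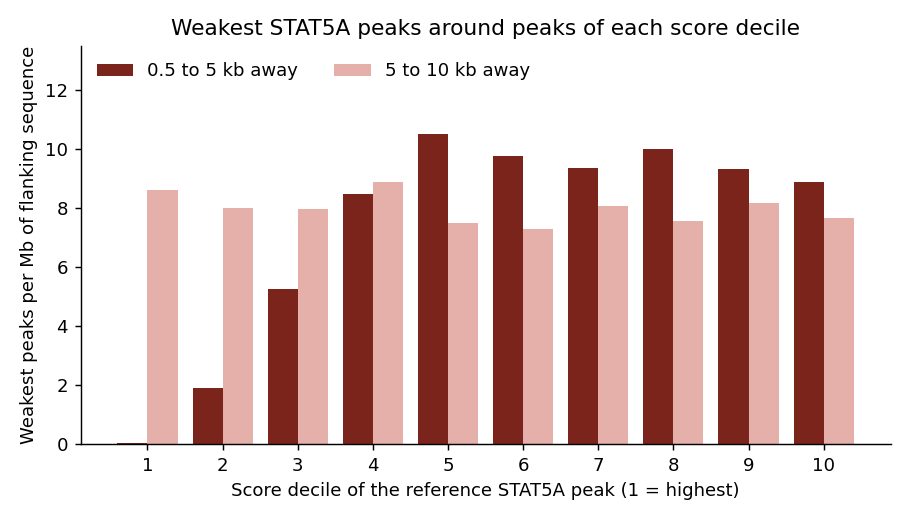
Density of the weakest regions (vertical axis, per Mb of flanking sequence) from 0.5 to 5 kb (dark bars) and from 5 to 10 kb (light bars) of STAT5A peaks in each score decile (horizontal axis, 1 is the highest-scoring). Dark bars rise from 0.0423 at the first decile to 10.5 at the fifth, while light bars stay between 7.28 and 8.88.

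Within a decile, the share was not distinguishable between neighbours with and without STAT5B. In the third decile, 38.4% (31.5% to 45.7%) of pairs of a weakest region and a peak with STAT5B within 10 kb were within 5 kb, against 35.7% (27.8% to 44.1%) around peaks without STAT5B. In the fourth decile the shares were 44.2% (30.5% to 58.7%) and 46.5% (41.4% to 51.6%). In the second decile, where only 225 of 2624 peaks lacked STAT5B, they were 17.4% (12.7% to 22.9%) and 20% (6.83% to 40.7%). These wide intervals overlap but leave room for a moderate difference. The 2 sets were also not matched for score within a decile. Median scores with and without STAT5B were 68.5 and 61.8 in the second decile, 50.7 and 47.4 in the third, and 39.3 and 37.4 in the fourth.

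The gap was also graded by the score of the peak that could fill it. Around the highest decile, 67.7% of same-decile neighbours within 10 kb were within 5 kb (516 within 5 kb and 246 from 5 to 10 kb, each pair counted from both ends). The share fell to 46.3% for fourth-decile neighbours, 28.8% for the sixth and 11.2% for the seventh, and for the last decile (scores 11 to 14.3) it was 0 of 97 (0% to 3.73%). Expressed as a ratio, a neighbour scored over 4 times as high as the weakest region in 1.49% of pairs 2 to 5 kb apart and in 19.4% of pairs 5 to 10 kb apart, and over 6 times as high in 1 and 198 pairs. For the higher-scoring peaks without STAT5B, over 4 times as high applied to 0.862% and 6.84% of pairs at these distances. Those peaks start from higher scores (median 26.6 against 14.8), so the same ratio asks for a stronger neighbour. The ratios of the 2 classes are therefore not directly comparable. Which settings the peak caller was run with is not given in the sources used here, and their part in this gap was not tested.

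The weakest regions were less often next to another STAT5A peak. One lay within 10 kb of 2728 regions, 42.3% (41.1% to 43.5%), against 52.5% (51.6% to 53.4%) of the higher-scoring peaks, 60.3% (59.1% to 61.4%) of the peaks with STAT5B and 52.1% of all STAT5A peaks. The share was below that of the higher-scoring peaks on 20 of 20 chromosomes. The median distance to the nearest STAT5A peak was 13.4 kb, against 9.15 kb and 6.93 kb in the other 2 classes, and the smallest was 563 bp. When a neighbour was within 10 kb, it was another weakest region in 27.9% (26.2% to 29.6%) of cases, a higher-scoring peak without STAT5B in 55.5% and a peak with STAT5B in 16.6% (15.3% to 18.1%). Of the whole list, these classes make up 24.6%, 48.6% and 26.8%. Peaks with STAT5B were the nearest neighbour in 27.7% (26.6% to 28.8%) of cases for the higher-scoring peaks. The gap within 5 kb of strong peaks enters all of these shares.

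Few weakest regions belonged to clusters, defined as runs of 5 or more STAT5A peaks with gaps of at most 10 kb. Such runs held 272 of the regions, 4.22% (3.74% to 4.73%), compared with 6.69% (6.26% to 7.14%) of the higher-scoring peaks, 9.10% (8.43% to 9.79%) of peaks with STAT5B and 6.73% of all STAT5A peaks. The gap within 5 kb of strong peaks enters these cluster shares as well. Of the 302 clusters, 135 held no weakest region, 88 held 1, 61 held 2 and 18 held 3 or more. No cluster was made of weakest regions alone, and the most in any cluster was 4. The first 3 of those with 4, in genome order, were chr5:53872285-53901121 (28.8 kb, 6 STAT5A peaks, 1 of them with wild type STAT5B), chr5:92915957-92938309 (22.4 kb, 5 STAT5A peaks, none with STAT5B) and chr9:102603470-102626682 (23.2 kb, 5 STAT5A peaks, none with STAT5B). Their highest STAT5A scores were 49.6, 21.6 and 36.1, all below the highest decile.

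Within the weakest regions, those of higher score lay somewhat more often close to other peaks. STAT5B lay within 10 kb of 9.20% (7.11% to 11.7%) of regions scoring 11 to 12.9 and of 11.1% (9.71% to 12.6%) of those scoring 16 to 17.5, and the intervals overlapped. For scores of 13 to 13.9, 14 to 14.9 and 15 to 15.8 the shares were 9.39%, 9.90% and 9.39%. Within 5 kb the shares were 1.06% (0.426% to 2.16%) and 3.40% (2.62% to 4.32%), which did not. Another STAT5A peak was within 10 kb of 38.6% (34.9% to 42.4%) and 44.7% (42.5% to 47.0%), intervals that just failed to meet. The share in clusters was 2.41% (1.39% to 3.89%) and 5.12% (4.16% to 6.22%). The median distance to STAT5B did not follow the score in order, at 78.3 kb, 82.3 kb, 84.3 kb, 70.1 kb and 72.1 kb from the lowest scores up. The gap within 5 kb of strong peaks, which was graded by score, enters the shares by score too.

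The weakest regions lay on 20 chromosomes, the Y excepted, and made up a similar share of the STAT5A peaks on most of them. Their autosomal density had a median of 2.51 per Mb, with chromosome 14 lowest at 2 and chromosome 11 highest at 3.49, and was 0.960 on the X. As a share of the STAT5A peaks on a chromosome, they ranged from 19.5% (16.9% to 22.3%) on chromosome 19 to 29.8% (26.0% to 33.9%) on the X. The interval lay above the overall 24.6% on 2 of 20 chromosomes (the X and, narrowly, chromosome 2 at 26.6%), below it on 1, and held it on 17. The X had few STAT5A peaks with STAT5B, 0.498 per Mb against an autosomal median of 2.78, while chromosome 19 had the most, at 4.08 per Mb.

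**Figure D5:**
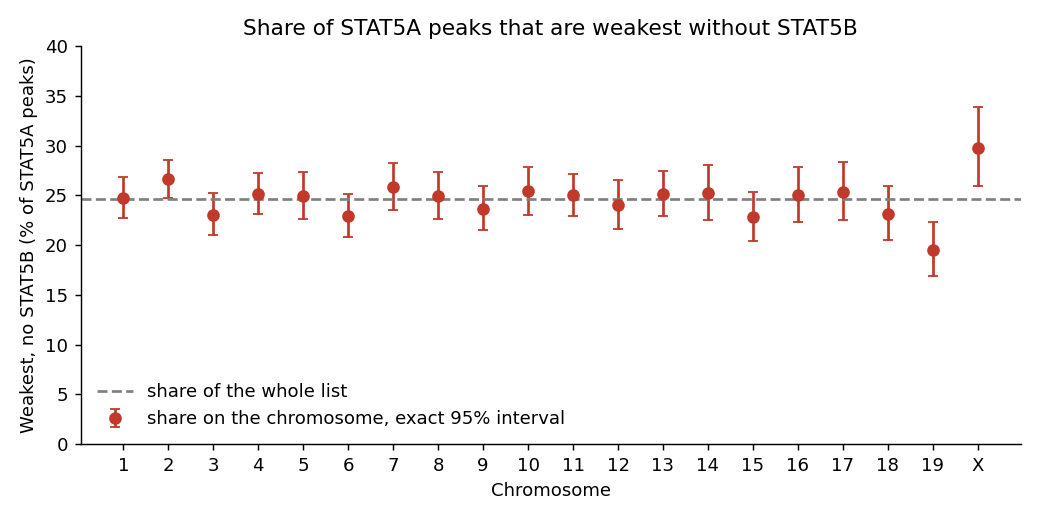
Share of each chromosome's STAT5A peaks that are weakest without STAT5B (vertical axis, percent; horizontal axis, chromosome); points are shares, bars exact 95% intervals and the dashed line the 24.6% of the whole list. Chromosome 19 (19.5%) lies below the line and the X (29.8%) above it.

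Without the peaks that carry STAT5B, the X no longer stood apart in its share of weakest regions. It remained sparse in both classes. The weakest regions had 0.960 per Mb there against an autosomal median of 2.51. The higher-scoring peaks had 1.76 per Mb against 4.80. Of the weakest regions 2.48% (2.11% to 2.89%) lay on the X, of the higher-scoring peaks without STAT5B 2.30% (2.05% to 2.58%), of peaks with STAT5B 1.18% (0.942% to 1.46%), and of all STAT5A peaks 2.05%. The first 2 intervals overlapped. Among STAT5A peaks without STAT5B, the weakest made up 35.2% (30.8% to 39.8%) on the X, an interval that holds the overall 33.6%, and 27.6% (24.1% to 31.4%) on chromosome 19, one that does not. The X makes up 6.28% of the placed mm9 sequence. A single weakest region lay on sequence not placed on a chromosome.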

How the data were processed

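ChIP-seq peak lists of 3 samples were used, with 1 library behind each list. Per the submitters' processing notes, CASAVA, BWA and HOMER were used with the mm9 build; no version, calling threshold or control library is given in the sources used here. HOMER can compare a peak with its surroundings, and whether that filter was used is not given either. Each deposited list has a chromosome, start, end and 1 signal value per peak, called the score. Starts were read as 0-based and are printed 1-based. All STAT5A peaks are 276 bp wide.

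The regions and all comparisons were chosen with earlier results of these data known. Regions below the score limit of 17.7 without a 1 bp overlap with either STAT5B list were taken, and bedtools 2.31.1 gave the same 6452. Distances run between peak centres. A density is the number of peaks at a distance divided by the flanking sequence of all reference peaks, counted again where flanks overlap. Deciles are by rank in the STAT5A list. Chromosome lengths are from GenomeInfoDb 1.38.1. Scripts ran under Python 3.11.15 with scipy 1.17.1 for the intervals, pandas 2.3.3 and numpy 2.4.6 for tables, and figures drawn by matplotlib 3.10.9. The overlap and distance code was tested on simulated data. Named regions are the 5 lowest and 5 highest in score, the 5 peaks just above the limit, the 5 nearest to STAT5B and, in genome order, the first 3 of the 8 clusters that tie for the most regions; others named were picked after their values were seen. Gene tables at hand are of another build (GRCm38), so no gene was assigned, and the planned searches of sequence, repeats and transcription starts were not run.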

Additional observations from a re-analysis of the deposited data

How the results depend on the processing

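The number of regions was 6453 with 50% of both peaks or centres within 100 bp required, 6448 with gaps of up to 500 bp, 6457 against wild type STAT5B alone and 8614 with a score limit of 20; a limit of 15 left 3521. By construction, shares moved with distance: 24.4% and 65.7% had another STAT5A peak within 5 kb and 25 kb, 2.29% and 26.0% had STAT5B within these distances, and 0.170% and 21.1% were in clusters with such gaps. The share of regions on the X stayed within its interval. Of the pairs of a region and a peak of the highest STAT5A decile within 10 kb, 0.441% (1 of 227) were within 5 kb. In alternatives chosen after seeing the data it was 15.7% around the highest quartile, 20.6% around all STAT5A peaks with STAT5B, 0 of 129 with a limit of 15 and 1.99% with a limit of 20. Alternatives on motifs, starts and repeats were not run. No paired analysis was possible because each group has 1 library, and no replicate could be left out. Total reads, which limit how weak a site can be called, are unknown.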

Other observations

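At a scale of 1 Mb the weakest regions were more numerous where STAT5B peaks were. Of the windows of 1 Mb along the placed chromosomes, 924 held no wild type STAT5B peak and had 0.763 ± 1.36 weakest regions each (SD over windows), and 595 of these windows had none. Windows of the Y, which held no STAT5A peak, were counted too. The 421 windows with 1 wild type STAT5B peak had 2.20 ± 2.09, the 443 with 4 to 6 had 3.79 ± 2.43, and the 324 with 7 or more had 4.97 ± 2.64. The windows of each group overlapped widely. The higher-scoring peaks climbed more steeply, from 1.29 ± 2.22 to 11.0 ± 4.77. The number of weakest regions per higher-scoring peak therefore went from 0.592 in windows without wild type STAT5B to 0.452 in those with 7 or more. Leaving out peaks of both classes with STAT5B within 5 kb, it went from 0.591 to 0.524.

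Long stretches without STAT5B were not empty of the weakest regions. Of 243 stretches of at least 2 Mb between neighbouring STAT5B peaks of either genotype, 25 were on the X. Together they spanned 909 Mb and held 764 weakest regions, 11.8% of them, and 10.6% of the higher-scoring peaks. The density was 0.841 weakest regions per Mb, against 2.43 over all placed sequence, and 30 stretches held none. The following were picked after their values were seen. The longest, chr14:80350649-97440497 (17.1 Mb), held 2 weakest regions and 9 higher-scoring peaks, and chr7:39015582-54173345 (15.2 Mb) held 10 and 18. The weakest region farthest from STAT5B, chrX:118619799-118620074 (score 13.7), lay 6.48 Mb from it. By contrast, the window chr13:31000001-32000000 held 12 weakest regions and 8 higher-scoring peaks with no wild type STAT5B peak at all, and chr12:109000001-110000000 held 14 and 16 with 1.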
